A study of Homo sapiens with 26 samples.

Results

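The genes described here are 8 oncofetal RNA-binding and chromatin genes: the IGF2 mRNA-binding proteins IGF2BP1, IGF2BP2 and IGF2BP3, the let-7 regulators LIN28A and LIN28B, the architectural chromatin proteins HMGA1 and HMGA2, and BCL11A, a repressor of the fetal globin genes. They were taken by gene symbol from the count table of each experiment, and all 8 of them were found, on 1 transcript each, among 19447 gene symbols. The values are ribosome footprint counts on coding sequences in 26 libraries made from 3 human lines, and the series compares ways of removing ribosomal RNA from such libraries. HEK293T and HEK293FT are embryonic kidney lines that carry the large T antigen of a simian virus, HEK293FT being a fast-growing derivative. K562 was derived from chronic myeloid leukaemia and has erythroid features.

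The HEK293T libraries (fragments of 15 to 35 nt) were 2 each without depletion and after Ribo-Zero Gold, RiboCop or NEBNext. The HEK293FT libraries (15 to 35 nt) were 1 without depletion and 1 after depletion with custom oligos. K562 was profiled in 2 experiments. The size-selection experiment held 1 undepleted and 1 NEBNext library at each of 20 to 34 nt and 20 to 60 nt. The kit experiment (20 to 34 nt) held 2 libraries each without depletion and after FastSelect, riboPools and riboPools with cold elution, plus 4 Ribo-Zero Plus libraries, 1 plain, 1 with oligos, 1 with formaldehyde and 1 with both. Growth followed the usual medium of each line, DMEM for the HEK lines and RPMI for K562, both with serum, and all lysates were made with cycloheximide. The 2 size-selection libraries titled undepleted carry another label that names NEBNext. They are grouped by title. Without them, among the members and list genes named below, the calls of K562 against HEK293T and HEK293FT stayed on the same side of the threshold except for ALKBH5 against HEK293T. The NEBNext comparison within K562 cannot be made without them. Cell line, experiment and size selection change together between the lines and cannot be told apart. The labels do not say that replicate libraries came from separate cultures, so p-values measure only the spread between these libraries, which may be technical.

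As background, these genes form a developmental circuit around the let-7 microRNAs. LIN28 proteins bind let-7 precursors and block their maturation, and mature let-7 lowers the output of mRNAs that carry matching sites in the 3′ UTR, among them HMGA2, IGF2BP1 and LIN28B. IGF2BP proteins bind mRNAs in the cytoplasm and protect them from decay. HMGA proteins bind AT-rich DNA through AT-hook motifs. IGF2BP1, IGF2BP3 and the LIN28 and HMGA genes are active in the embryo, are low in most adult tissue and return in many tumours. BCL11A silences gamma-globin in adult erythroid cells, and in erythroid cells LIN28B and IGF2BP1 are known to lower BCL11A and raise fetal globin.

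The sequences below are shown because let-7 is the known link between these genes. The microRNAs themselves were not measured here. All 8 mature let-7 5p sequences in the RefSeq table (GRCh38.p14) share the seed GAGGUAG, and 2 of them are printed with that seed (bases 2 to 8) in capitals. In the precursor hairpin of let-7g the capitals mark GGAG, the motif that LIN28 proteins recognise.
hsa-let-7a-5p: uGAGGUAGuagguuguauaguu
hsa-let-7g-5p: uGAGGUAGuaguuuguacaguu
let-7g hairpin (chr3:52268278-52268361, minus strand): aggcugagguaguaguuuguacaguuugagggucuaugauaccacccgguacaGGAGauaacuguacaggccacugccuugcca
GGAG lay after base 25 in 9 of 11 let-7 hairpins, and in 26.2% of the 1562 hairpins in the table. A match is a description and not a site of binding.

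The complement of the seed, CTACCTC, was searched on the transcript strand of the 3′ UTRs of the deposited transcripts (GENCODE 29, GRCh38). It was found in 7 of the 8 genes, with 16 matches in all, of which 9 were followed by an A. IGF2BP1, LIN28B and HMGA2 held 4 matches each, IGF2BP2, IGF2BP3, LIN28A and HMGA1 held 1 each, and BCL11A held none. LIN28B also held 1 match in its coding sequence. Of 6464 transcripts whose 3′ UTR lay in the length range of these genes (1346 to 6206 nt), 15.2% held a match and 0.139% held at least 4. The match nearest to the stop codon of each gene is printed with the matching bases in capitals.
IGF2BP1 (chr17:49051061-49051083, plus strand): tgtgtgcgaagtaaaCTACCTCa
IGF2BP2 (chr3:185644220-185644242, minus strand): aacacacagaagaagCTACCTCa
IGF2BP3 (chr7:23311795-23311817, minus strand): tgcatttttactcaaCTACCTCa
LIN28A (chr1:26427348-26427370, plus strand): gcacagcctattgaaCTACCTCa
LIN28B (chr6:105078812-105078834, plus strand): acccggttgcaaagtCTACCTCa
HMGA1 (chr6:34245829-34245851, plus strand): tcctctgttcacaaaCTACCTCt
HMGA2 (chr12:65963298-65963320, plus strand): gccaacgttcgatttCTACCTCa
The matches of HMGA2 and LIN28B begin 21 and 44 nt into the 3′ UTR, and those of IGF2BP1 begin 1632 nt in, in a 3′ UTR of 6206 nt.

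**Figure D1:**
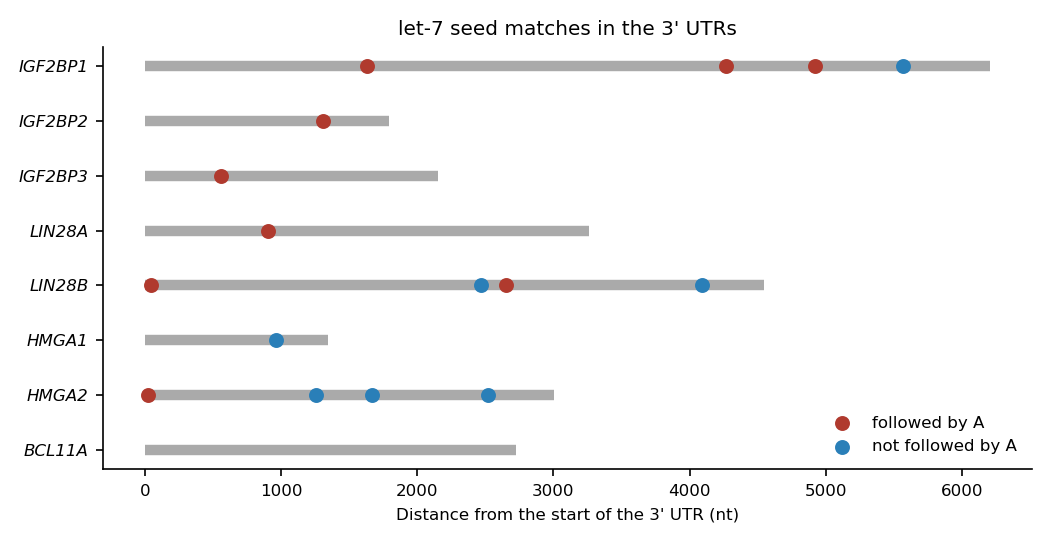
Map of let-7 seed matches along the 3′ UTR of each gene. Grey bars run from the start of the 3′ UTR to its end in nt, points are matches, red where the next base is A and blue where it is not. IGF2BP1, LIN28B and HMGA2 have 4 points each and BCL11A has none.

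Library totals ran from 46858 to 5795774 counts, with 120019 to 421521 in HEK293T, 900763 and 5747772 in HEK293FT, and 116742 to 5795774 in the K562 kit experiment. Levels are in CPM, the count per 1000000 counts on coding sequences, and 3 counts were taken as the floor, which is 64 CPM in the shallowest library and 0.518 CPM in the deepest. Intervals and floors cover counting error only. A footprint level joins the amount of mRNA with its ribosome load, and in these lysates fewer expressing cells and fewer footprints per cell cannot be told apart. Erythroid markers matched the labels: their summed level was 3996 to 13070 CPM in K562 and at most 15 CPM in HEK293T, where 9 of 11 had no count. Of 9 kidney-line markers, EYA1, NEFM and PAX2 had no count in K562, while the keratins KRT8 and KRT18 were higher in K562 than in HEK293T. The summed level of the 9 had a median of 2098 CPM in K562, 1674 CPM in HEK293T and 1212 CPM in HEK293FT. This sum was thus not higher in the HEK lines.

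HMGA1 separated the lines. The gene (chr6:34236873-34246230, plus strand, 4 coding exons) encodes a protein that binds AT-rich DNA and shapes chromatin at many promoters, and its level was 6.96-fold higher in undepleted K562 than in undepleted HEK293T. The HEK293T libraries had 175 and 163 CPM, the HEK293FT library had 251 CPM, and the K562 libraries had 1141 and 1152 CPM in the size-selection experiment and 1051 and 1109 CPM in the kit experiment. The groups did not overlap. All 7 undepleted libraries were fitted together with edgeR (quasi-likelihood, p-values adjusted by Benjamini-Hochberg over 5551 genes). HMGA1 was higher in K562 than in HEK293T by 2.80 ± 0.17 on the log2 scale (SE, edgeR adjusted p = 1.74e-35). Against the lone HEK293FT library, which the fit assumes to vary like the others, the difference was 2.10 ± 0.11 (fitted fold 4.29, edgeR adjusted p = 1.07e-43). The call against HEK293T held under all 14 alternative settings, between 2.65 and 2.96, and the difference was 2.93 without the 2 size-selection libraries of doubtful label. Across every library HMGA1 lay between 89.5 and 213 CPM in HEK293T and between 866 and 1227 CPM in K562. How reads that also match HMGA1 pseudogene copies were counted is not given in the sources used here.

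The same direction was measured in NEBNext libraries, which the undepleted fit does not use. HMGA1 had 113 and 89.5 CPM in HEK293T and 911 and 1227 CPM in K562, a difference of 3.54 ± 0.24 on the log2 scale (fitted fold 11.6, edgeR adjusted p = 3.53e-08). Of 4 members past the filter there, HMGA1 alone was called, where 43.6% of 4236 genes were called. Without the K562 library of 20 to 34 nt the difference was 3.78 with an edgeR adjusted p of 0.0732, and edgeR called 0 of 5123 genes, with 1664 at an unadjusted p under 0.05.

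HMGA2 (chr12:65824131-65966295, plus strand, 5 coding exons) ran the other way, from low levels. This paralog, a classic let-7 target of embryonic and tumour tissue, had 5 and 4 counts in undepleted HEK293T (41.7 and 26.1 CPM) and 25 counts in undepleted HEK293FT (27.8 CPM). It had no count in any of the 16 K562 libraries, which sum to 27561047 counts. In the remaining HEK293T libraries HMGA2 had 15 and 15 counts after Ribo-Zero Gold, 6 and 13 after RiboCop and 2 and 2 after NEBNext, and in HEK293FT it had 197 after custom oligos. Every HEK library thus held HMGA2 footprints. Over all libraries it was at least 312-fold lower in K562 than in HEK293T and at least 307-fold lower than in HEK293FT, with the floor of 3 counts taken over the K562 group. In undepleted libraries alone the bounds were 26.4-fold and 22.2-fold.

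HMGA2 and BCL11A did not pass the filter on low counts in the undepleted fit, so they were tested in the fit without that filter. There HMGA2 was lower in K562 than in HEK293T (edgeR adjusted p = 1.72e-07) and than in HEK293FT (edgeR adjusted p = 2.55e-12). BCL11A was lower in K562 in the same fits (edgeR adjusted p = 1.79e-07 and 7.57e-12). Both genes kept these calls with the kit experiment as the only source of K562 libraries. Without the filter, 25.5% of 14111 genes were called against HEK293T and 40.7% against HEK293FT, while HEK293FT against HEK293T gave 2.14% and no call among these genes. In NEBNext libraries the 4 HMGA2 counts of HEK293T against 0 in K562 gave no call (edgeR adjusted p = 0.177 without the filter).

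BCL11A (chr2:60457679-60553658, minus strand, 3 coding exons), a zinc-finger repressor that recruits chromatin-modifying complexes to the gamma-globin promoters, followed HMGA2. Undepleted HEK293T had 3 and 6 counts (25 and 39.1 CPM) and undepleted HEK293FT had 24 (26.6 CPM). The K562 libraries had 1 count in all, in a riboPools library with cold elution of 5795774 counts (0.173 CPM). The HEK293FT library with custom oligos had 113 counts (19.7 CPM). In HEK293T, BCL11A had 12 and 9 counts after Ribo-Zero Gold, 1 and 7 after RiboCop, and 1 and 0 after NEBNext. Over all libraries the ratio of HEK293T to K562 was 588 (95% exact counting interval 99.5 to 23820) and that of HEK293FT to K562 was 568 (100 to 22593). In undepleted libraries BCL11A was at least 26.4-fold lower in K562 than in HEK293T and at least 21.4-fold lower than in HEK293FT.

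The fetal globins showed the opposite pattern of BCL11A. HBG1 and HBG2, the gamma-globin genes whose near-identical sequences make their split uncertain, averaged 3904 ± 142 and 3967 ± 129 CPM (SD, n = 4) in undepleted K562 and had no count in undepleted HEK293T or HEK293FT. HBE1, the embryonic epsilon-globin, averaged 2039 ± 267 CPM (SD, n = 4) and also had no count in the HEK lines. HBA1, HBA2 and HBZ, of 9 listed globins, were also called higher in K562, in a test that globins could enter through K562 alone. Of 19 listed fetal globin regulators past the filter, 8 were higher and 3 lower than in HEK293T, where 21.9% of all genes tested were higher and 22.3% lower, with a median log2 difference of 0.295 beside -0.0093 over all genes. The erythroid factors GATA1 (384 ± 43 CPM), MYB (126 ± 21.9 CPM) and KLF1 (94.2 ± 11.3 CPM; SD, n = 4) had no count in the undepleted HEK libraries and entered the test through K562 alone. TAL1, also among the 8, entered the same way, as all erythroid markers together had at most 15 CPM in HEK293T and 4 CPM in HEK293FT. Such genes could only be called higher, and they add to the 8 calls and to the median. Subunits of the NuRD corepressor were called in both directions, with HDAC1, RBBP4 and GATAD2A higher in undepleted K562 than in HEK293T and HDAC2, RBBP7 and MBD3 lower. Against HEK293FT the same genes except GATAD2A were called in these directions. In NEBNext libraries only RBBP4, HDAC2 and RBBP7 of them were called. HDAC2 and RBBP7, which belong to this complex that BCL11A is known to recruit, were lower in K562 by log2 differences of -0.94 ± 0.15 (286 against 582 CPM) and -0.955 ± 0.14 (360 against 687 CPM), with edgeR adjusted p of 1.09e-08 and 5.52e-10. MBD3, a further subunit of that complex, was also called lower, at 46.1 ± 26.5 CPM (SD, n = 4) against 89.6 ± 20.7 CPM (SD, n = 2), in overlapping groups. Its edgeR adjusted p of 0.00148 became 0.247 without HEK293T undepleted library 2, and DESeq2 gave an adjusted p of 0.0564.

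**Figure D2:**
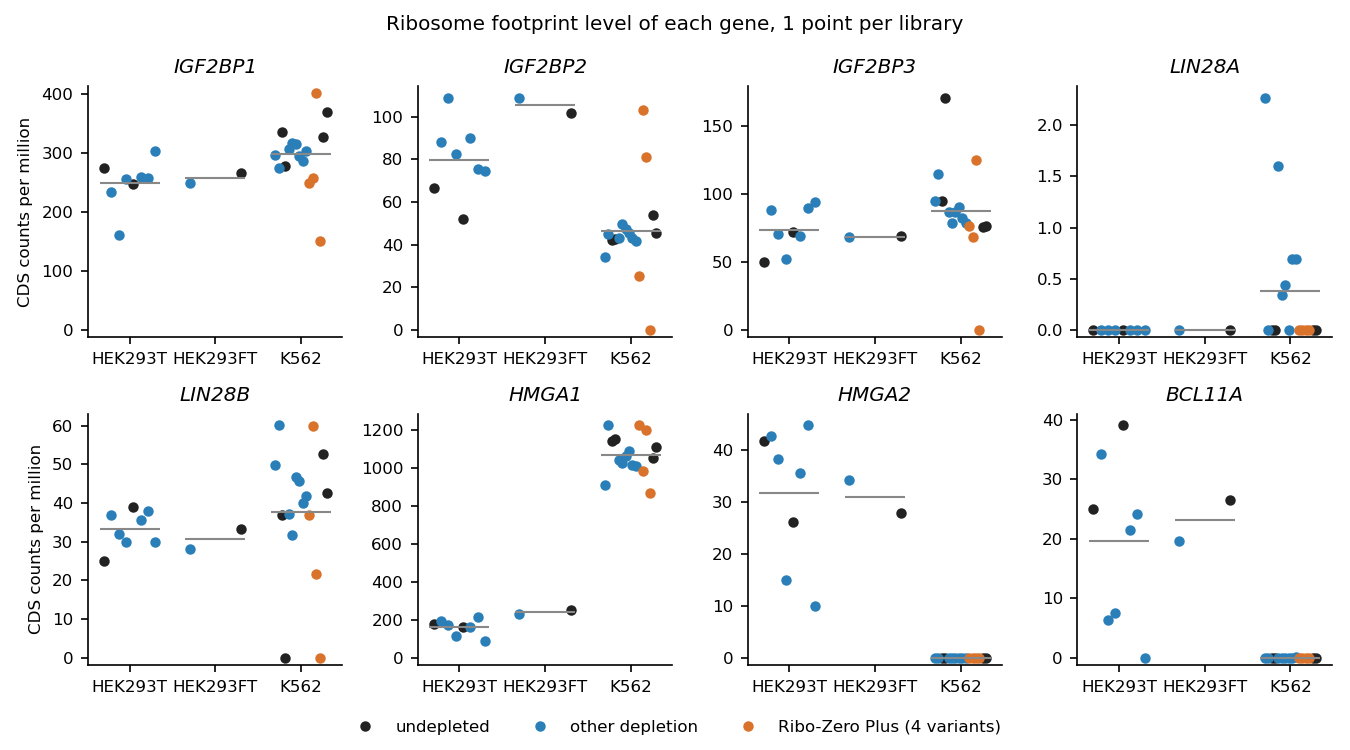
Level of each gene in CPM (vertical axis) in every library, by cell line. Points are libraries, coloured by depletion, and grey lines are means over the libraries of a line. HMGA1 lies at 866 to 1227 CPM in K562 and at 89.5 to 251 CPM in the HEK lines, while HMGA2 and BCL11A lie at or near 0 in K562.

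IGF2BP1 (chr17:48997412-49055650, plus strand, 15 coding exons), known for stabilising MYC mRNA, was present in every library, at 151 to 401 CPM. Its undepleted libraries had 275 and 248 CPM in HEK293T, 266 CPM in HEK293FT, and 336, 277, 327 and 370 CPM in K562. The K562 libraries lay above the HEK293T libraries, though 277 and 275 CPM are close, and the first rests on 13 counts (95% Poisson interval 148 to 474 CPM). The edgeR difference from HEK293T was 0.52 ± 0.18 on the log2 scale (fitted fold 1.43, adjusted p = 0.0125) and that from HEK293FT was 0.35 ± 0.12 (fitted fold 1.28, adjusted p = 0.0058). Without the size-selection libraries these were 0.67 and 0.495 (edgeR adjusted p = 0.000631 and 2.82e-05). The call against HEK293T was lost with total-count scaling (0.37, edgeR adjusted p = 0.0829), with DESeq2 (0.44, adjusted p = 0.201) and without HEK293T undepleted library 2 (0.57, edgeR adjusted p = 0.113). The call against HEK293FT was lost with DESeq2 (0.32, adjusted p = 0.389) and without K562 kit library 2 (0.31, edgeR adjusted p = 0.0871). In NEBNext libraries the K562 level was 286 ± 15.2 CPM and the HEK293T level 279 ± 34.2 CPM (SD, n = 2 each), with no call (0.17 ± 0.21, edgeR adjusted p = 0.544).

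IGF2BP2 (chr3:185643739-185825056, minus strand, 16 coding exons), the family member that persists most in adult tissue, was called lower in K562 than in the lone undepleted HEK293FT library by edgeR, which takes that library's spread from the other groups, and not by DESeq2. The undepleted libraries had 66.7 and 52.1 CPM in HEK293T, 102 CPM in HEK293FT, and 42.1, 42.7, 53.7 and 45.5 CPM in K562. The value of 42.7 CPM comes from the shallowest library and lies under its floor of 64 CPM. The log2 difference of K562 from HEK293FT was -1.07 ± 0.22 (fitted fold 2.1, edgeR adjusted p = 5.77e-06), beside -1.13 with DESeq2 (adjusted p = 0.11). Against HEK293T the undepleted groups overlapped and the edgeR difference was -0.14 ± 0.40 (adjusted p = 0.795), and 0.022 without the size-selection libraries (adjusted p = 0.972). With the libraries depleted without a nuclease added to that fit, it was -0.73 with an edgeR adjusted p of 4.14e-06. The undepleted HEK293T values rest on 8 and 8 counts. In NEBNext libraries IGF2BP2 was 39.5 ± 7.83 CPM in K562 and 78.6 ± 5.59 CPM in HEK293T (SD, n = 2 each). That difference of -0.90 ± 0.40 was not called (edgeR adjusted p = 0.0767), except with total-count scaling (-1.09, edgeR adjusted p = 0.0321). IGF2BP2 passed the filter of that fit through HEK293T alone, the line where it was higher. Over all 10 HEK libraries it lay between 52.1 and 109 CPM, and over the 13 K562 libraries other than the Ribo-Zero Plus libraries with additions it lay between 25.5 and 53.7 CPM. The K562 Ribo-Zero Plus libraries with formaldehyde, with oligos and with both had 103, 81.2 and 0 CPM. The values of 103 and 81.2 CPM lie within the HEK range.

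IGF2BP3 (chr7:23310209-23470467, minus strand, 15 coding exons), known as a marker of tumours and of fetal haematopoiesis, was not called in any comparison of lines. It had 50 and 71.7 CPM in undepleted HEK293T, 68.8 CPM in HEK293FT, and 94.6, 171, 75.7 and 76.6 CPM in K562. The value of 171 CPM comes from 8 counts in the shallowest library (95% Poisson interval 73.7 to 336 CPM). The edgeR difference was 0.47 ± 0.36 against HEK293T (adjusted p = 0.29) and 0.19 ± 0.22 against HEK293FT (adjusted p = 0.461). In NEBNext libraries it was 0.54 ± 0.36 against HEK293T (edgeR adjusted p = 0.242).

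The make-up of the IGF2BP family can be read per length, as each gene's CPM per kilobase over the sum of the 3. IGF2BP1 took most of it, at 68.9% ± 2.55 (SD, n = 2) in undepleted HEK293T, 61.5% in HEK293FT and 68.9% ± 8.28 (SD, n = 4) in K562. IGF2BP2 took 15.1% ± 2.05 (SD, n = 2) in undepleted HEK293T, 22.7% in HEK293FT and 9.34% ± 1.39 (SD, n = 4) in K562. The ranges of the IGF2BP2 share did not overlap in undepleted libraries, with 13.6 to 16.5% in HEK293T and 8.41 to 11.4% in K562, and these shares were not tested. The K562 share of 8.41% is that of the shallowest library, where IGF2BP2 lay under the floor of 64 CPM. In the kit experiment alone the K562 share was 10.2% ± 1.73 (SD, n = 2). IGF2BP3 took 16.1% ± 4.6 (SD, n = 2) in undepleted HEK293T and 21.8% ± 8.9 (SD, n = 4) in K562, where the ranges overlapped, and 16.1% ± 0.76 (SD, n = 2) in the kit experiment alone.

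**Figure D3:**
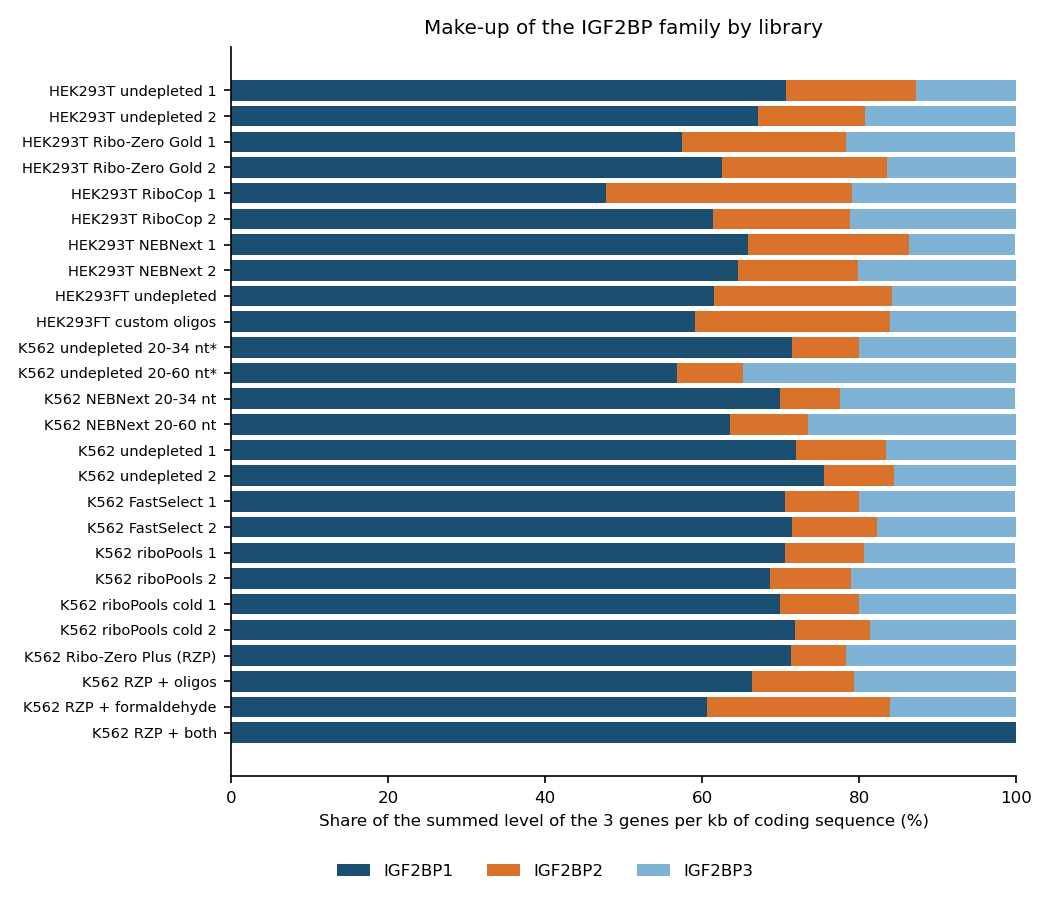
Share of IGF2BP1, IGF2BP2 and IGF2BP3 in their summed level per kilobase of coding sequence (horizontal axis, percent), 1 bar per library, where asterisks mark the size-selection libraries titled undepleted that another label calls NEBNext. The IGF2BP2 segment is 9.34% on average in undepleted K562 and 22.7% in undepleted HEK293FT, and the bar of Ribo-Zero Plus with both additions holds IGF2BP1 alone.

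LIN28B (chr6:104957048-105083332, plus strand, 4 coding exons), which holds let-7 precursors back, was detected in all lines, and its paralog LIN28A was at or near 0. LIN28B had 25 and 39.1 CPM in undepleted HEK293T, 33.3 CPM in HEK293FT, and 36.8, 0, 52.8 and 42.6 CPM in K562. The 0 belongs to the shallowest library, whose floor of 64 CPM lies above the level of the other libraries. No call was made against HEK293T (0.59 ± 0.50, edgeR adjusted p = 0.342) or HEK293FT (0.44 ± 0.31, edgeR adjusted p = 0.215), and the HEK293T values rest on 3 and 6 counts. In NEBNext libraries LIN28B was 55 ± 7.23 CPM in K562 and 29.9 ± 0.12 CPM in HEK293T (SD, n = 2 each), which was not called (1.10 ± 0.54, edgeR adjusted p = 0.145 without the filter). LIN28A (chr1:26410778-26429722, plus strand, 4 coding exons), a pluripotency factor, had no count in the 10 HEK libraries, which allows up to 0.354 CPM over their sum. In K562 it had 15 counts over 16 libraries, a pooled 0.544 CPM (95% Poisson interval 0.305 to 0.898), with at most 4 counts in a library. The lower end of that interval lies under the HEK limit.

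Across these genes, 5 of 8 passed the filter in the undepleted fit. Against HEK293T, 2 were called higher (HMGA1 and IGF2BP1) and none lower, where 44.2% of all genes tested were called. Against HEK293FT, 2 were called higher (HMGA1 and IGF2BP1) and 1 lower (IGF2BP2), where 60.3% were called. HEK293FT against HEK293T gave no call among these genes, where 6.7% were called. The nearest there was HMGA1, at 251 CPM against 169 ± 8.53 CPM (SD, n = 2), with a log2 difference of 0.71 ± 0.24 (edgeR adjusted p = 0.0505, or 0.0494 without the size-selection libraries). The 2 comparisons with K562 share their K562 libraries.

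**Figure D4:**
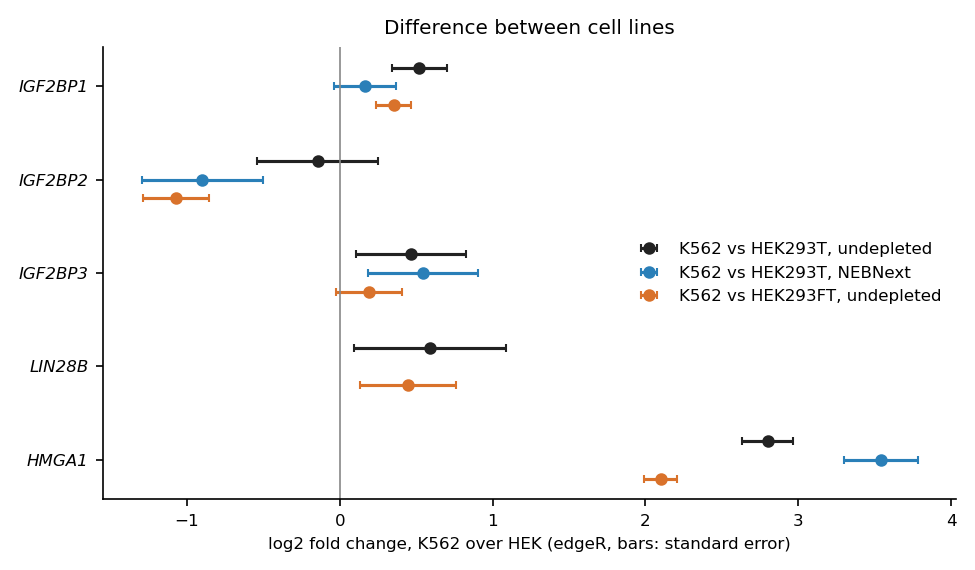
Log2 fold change of K562 over the HEK line (horizontal axis) for the 5 genes past the filter in the undepleted fit, with the edgeR standard error. Black points are undepleted libraries against HEK293T, blue points NEBNext libraries against HEK293T and orange points undepleted libraries against HEK293FT, and LIN28B has no blue point because it did not pass the filter there. HMGA1 lies at 2.80, 3.54 and 2.10, and the other genes lie within -1.07 to 0.59.

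Per kilobase of coding sequence, HMGA1 ranked highest in each line, at 521 ± 26.3 CPM per kb (SD, n = 2) in undepleted HEK293T, 774 in HEK293FT and 3435 ± 141 (SD, n = 4) in K562. IGF2BP1 came next in each line, at 151, 154 and 189 CPM per kb. The third place went to HMGA2 in HEK293T (103 ± 33.4 CPM per kb; SD, n = 2) and HEK293FT (84.1) and to IGF2BP3 in K562 (60 ± 25.9 CPM per kb; SD, n = 4). In HEK293T, LIN28B, IGF2BP3 and IGF2BP2 followed at 42.6, 35 and 33 CPM per kb, neighbours whose libraries overlapped. In the K562 kit experiment alone LIN28B followed IGF2BP1, at 63.4 ± 9.58 CPM per kb against 43.8 ± 0.33 for IGF2BP3 (SD, n = 2 each). Over all 4 undepleted K562 libraries those of IGF2BP3 and LIN28B overlapped, as did those of LIN28B and IGF2BP2. BCL11A, with the longest coding sequence of the 8 (2406 nt), was lowest of the detected genes in HEK293T at 13.3 CPM per kb. HMGA1 stood at 16 to 30.6 times the IGF2BP1 level per kb in the 16 K562 libraries and at 1.58 to 5.78 times in the 8 HEK293T libraries.

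No member was called in any of 7 comparisons of a kit with undepleted libraries of the same experiment. Past the filter were 4 of the 8 members in each HEK293T comparison, 3 for NEBNext in K562 and 5 in the other K562 comparisons. Without the filter 7 could be fitted, or 6 for NEBNext in K562, and none was called. The share of all genes called in HEK293T was 3.24% with NEBNext, 0.068% with Ribo-Zero Gold and 0% with RiboCop, where DESeq2 also called 0 and 195 genes had an unadjusted edgeR p under 0.05. In K562 it was 2.72% for NEBNext, 0.0205% for FastSelect, 0.082% for riboPools and 0.225% for riboPools with cold elution. In HEK293T, HMGA1 had 113 and 89.5 CPM after NEBNext against 175 and 163 CPM without depletion, below in both libraries but not called (-0.75 ± 0.33, edgeR adjusted p = 0.241). In K562 the same comparison gave -0.12 ± 0.16 (edgeR adjusted p = 0.819). The difference between those 2 effects was 0.64 on the log2 scale and was not called (edgeR adjusted p = 0.683), in an interaction test added after the data were seen. BCL11A had 1 count in 334399 in the NEBNext libraries of HEK293T and 9 in 273481 without depletion, which was not called either (edgeR adjusted p = 0.209 without the filter).

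IGF2BP1 came nearest to a kit call in K562. The undepleted kit libraries had 327 and 370 CPM, FastSelect 307 and 317, riboPools 315 and 294, and cold elution 287 and 303 CPM. All 6 depleted libraries lay below both undepleted ones. The same undepleted libraries serve each kit, and how many other genes lie in this order was not counted. For cold elution the difference was -0.24 ± 0.061 on the log2 scale (edgeR adjusted p = 0.0545). It passed the threshold with the replicate number as a block (-0.24, edgeR adjusted p = 0.0425), without cold-elution library 2 (edgeR adjusted p = 0.0245) and without undepleted library 1 (0.0282). It did not without undepleted library 2 (-0.15, edgeR adjusted p = 0.834) or cold-elution library 1 (-0.20, 0.522). The other settings did not pass either, with edgeR adjusted p of 0.0512 (DESeq2 size factors), 0.0723 (total-count scaling), 0.124 (no filter) and 1 (Ribo-Zero Plus libraries in the fit), and a DESeq2 adjusted p of 0.263. HMGA1 in the same libraries was 1012 ± 1.67 CPM after cold elution and 1080 ± 41 CPM without depletion (SD, n = 2 each; edgeR adjusted p = 0.546). LIN28B was 34.4 ± 3.9 CPM after FastSelect and 47.7 ± 7.21 CPM without depletion (SD, n = 2 each; edgeR adjusted p = 0.831).

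The Ribo-Zero Plus libraries were 1 of a kind, so their values have no replicate check. The plain library (1840190 counts) had 459 counts of IGF2BP1, 0.718 of the undepleted level (95% exact counting interval 0.638 to 0.807), and 47 of IGF2BP2, 0.513 of it (0.356 to 0.728). In the same library IGF2BP3 stood at 0.999 (0.792 to 1.26) and HMGA1 at 1.14 (1.07 to 1.2) of the undepleted level. The library with oligos and formaldehyde (165153 counts) had no count of IGF2BP2, IGF2BP3 or LIN28B, where the undepleted level would give 8.23, 12.6 and 7.92 counts. These 3 genes were thus at least 2.74-fold, 4.19-fold and 2.64-fold lower there. It had 25 counts of IGF2BP1 (ratio 0.436, 0.28 to 0.648) and 143 of HMGA1 (0.803, 0.673 to 0.951). Of 2201 genes with an undepleted mean of 40 to 100 CPM, 11.6% had no count in that library, 18.7% had none in the library with formaldehyde, 8.86% had none in the library with oligos and 0% had none in the plain library. The libraries with formaldehyde or oligos alone (116742 and 184722 counts) had 12 and 15 counts of IGF2BP2, ratios of 2.06 (1.03 to 3.75) and 1.63 (0.882 to 2.81).

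**Figure D5:**
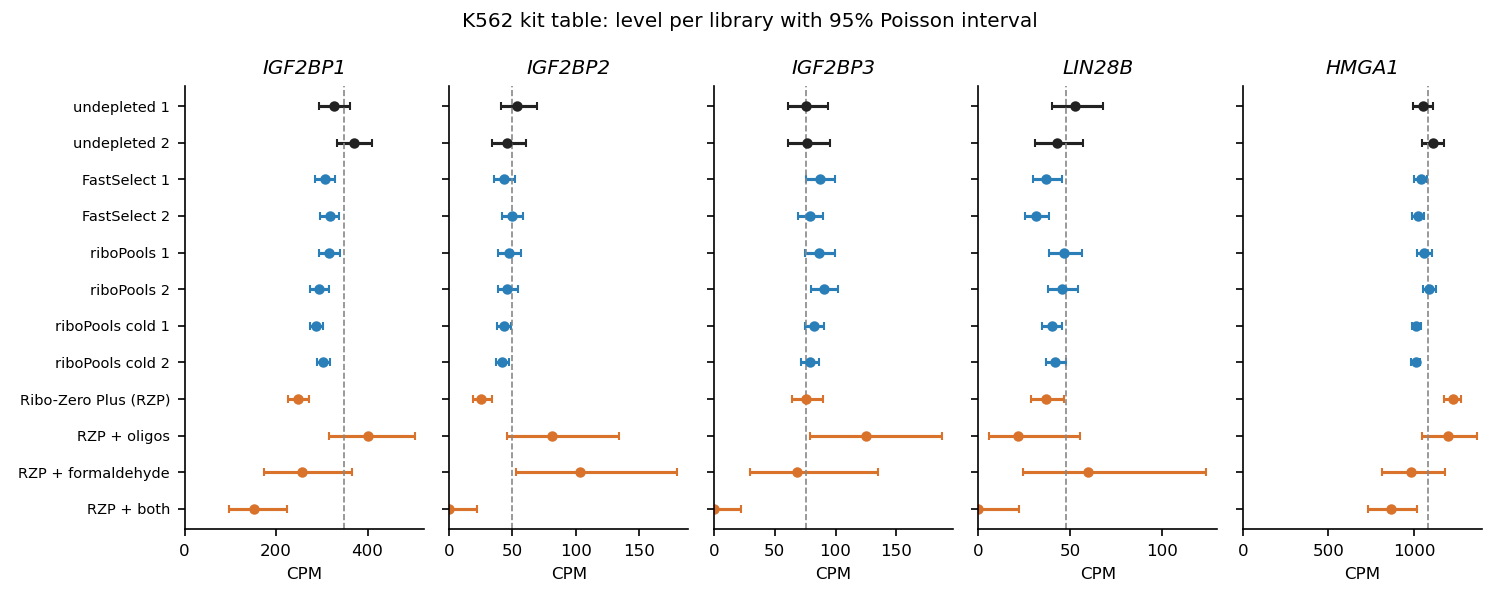
Level of 5 genes in CPM (horizontal axis) in each library of the K562 kit experiment, with 95% Poisson intervals; dashed lines are undepleted means, and RZP is Ribo-Zero Plus. IGF2BP1 lies left of the undepleted mean in all 6 FastSelect and riboPools libraries, and IGF2BP2, IGF2BP3 and LIN28B have no count in the Ribo-Zero Plus library with both additions.

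In HEK293FT the libraries with custom oligos and without depletion had close values for all 7 detected genes. The ratio was 0.936 (95% exact counting interval 0.816 to 1.08) for IGF2BP1, 1.07 (0.857 to 1.34) for IGF2BP2, 0.988 (0.754 to 1.31) for IGF2BP3, 0.846 (0.571 to 1.29) for LIN28B and 0.904 (0.785 to 1.05) for HMGA1. The low genes had wider intervals, with HMGA2 at 1.23 (0.812 to 1.95) and BCL11A at 0.738 (0.472 to 1.2). Each interval includes 1.

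The listed genes that act on let-7 differed between K562 and HEK293T in single members. Of 9 genes of let-7 biogenesis and silencing past the filter, 1 rose and 2 fell in K562, where 44.2% of all genes tested were called, and the median log2 difference was -0.10 beside -0.0093 over all genes. AGO1, an effector of microRNA silencing, averaged 79.9 ± 15.1 CPM (SD, n = 4) in K562 and 14.8 ± 2.57 CPM (SD, n = 2) in HEK293T (2.64 ± 0.53, edgeR adjusted p = 1.22e-05). DICER1, which cuts precursor hairpins, averaged 8.54 ± 7.56 CPM (SD, n = 4) against 63.6 ± 16.2 CPM (SD, n = 2) (-2.10 ± 0.52, edgeR adjusted p = 0.000404). KHSRP, which aids let-7 maturation, averaged 393 ± 92.6 CPM (SD, n = 4) against 825 ± 59 CPM (SD, n = 2), with an edgeR adjusted p of 1.48e-11. All 3 were called in the same direction against HEK293FT and in NEBNext libraries. In the undepleted fit AGO1 entered the test through K562 alone and DICER1 through the HEK lines alone. The NEBNext fit has the same limit. There AGO1 (17.4 ± 3.46 CPM in HEK293T; SD, n = 2) entered through K562 alone, and DICER1 (11.6 ± 9.28 CPM in K562; SD, n = 2) through HEK293T alone. In NEBNext libraries AGO1 was not called with DESeq2 (adjusted p = 0.132) or with any 1 library left out (edgeR adjusted p = 0.0703 to 0.135).

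Of 10 other known let-7 targets past the filter, 4 were higher and 1 lower in K562 than in HEK293T, again beside 44.2% of all genes called, with a median log2 difference of 0.64. Against HEK293FT, 3 were higher and 2 lower, beside 60.3% of all genes called, with a median of 0.29. ARID3A, a DNA-binding factor, averaged 88.8 ± 19 CPM (SD, n = 4) against 6.52 ± 9.22 CPM (SD, n = 2), with 2 counts in HEK293T (edgeR adjusted p = 2.57e-08). TGFBR1, a receptor kinase, averaged 83.2 ± 9.64 against 22.3 ± 3.85 CPM (SD, n = 4 and 2; edgeR adjusted p = 0.000474). IGF1R, the receptor for the growth factor that names the IGF2BP family, averaged 3.39 ± 4.58 against 65.9 ± 1.06 CPM (SD, n = 4 and 2; edgeR adjusted p = 2.21e-05). ARID3A and TGFBR1 entered the test through K562 alone, and IGF1R through HEK293T alone. CCND1, a cyclin of the G1 phase, was higher than in HEK293T (80.4 ± 5.27 against 22.3 ± 3.85 CPM; SD, n = 4 and 2; edgeR adjusted p = 0.000367) and not called against HEK293FT (71.1 CPM, edgeR adjusted p = 0.609).

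Among 18 partners of IGF2BP proteins and genes of the m6A mark that these proteins read, none was higher and 7 were lower in K562 than in HEK293T, where 22.3% of all genes tested were lower. The median log2 difference was -0.19. FMR1, an RNA-binding protein found in the same granules, averaged 21.2 ± 4.06 against 110 ± 8.76 CPM (SD, n = 4 and 2; edgeR adjusted p = 5.85e-07). FTO, which removes methyl marks from RNA, averaged 19.3 ± 4.46 against 83.1 ± 11.5 CPM (SD, n = 4 and 2; edgeR adjusted p = 6.88e-05). ALKBH5, the m6A demethylase, had an edgeR adjusted p of 0.0386 in overlapping groups, and was not called under 8 alternatives (adjusted p = 0.0535 to 0.449, the highest without HEK293T undepleted library 1). The same 7 were called lower against HEK293FT, a comparison that shares the K562 libraries, and SYNCRIP and YTHDF2 were higher there. Among all genes tested, 31.2% were lower and 29.1% higher in that comparison. FMR1, FTO and ALKBH5 entered the undepleted fit through the HEK lines alone, and the NEBNext fit through HEK293T alone. In NEBNext libraries, 2 of 16 past the filter were higher (WTAP and YBX1) and 4 lower (ALKBH5, FMR1, FTO and STAU1), and DHX9, G3BP1, HNRNPU and METTL3 were not called. Of all 4236 genes tested there, 22% were higher and 21.6% lower. Under 8 alternatives there, FTO and ALKBH5 each lost their call in 6 and FMR1 in 3.

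Of 8 other high-mobility-group genes, 1 rose and 3 fell in K562, beside 44.2% of all genes called. HMGB2, a protein that bends DNA, averaged 501 ± 16.9 against 351 ± 45.2 CPM (SD, n = 4 and 2; edgeR adjusted p = 0.000456). HMGB3 averaged 110 ± 3.13 against 302 ± 15 CPM (SD, n = 4 and 2; edgeR adjusted p = 1.24e-08), and the nucleosome-binding HMGN3 and HMGN5 averaged 18.4 and 48.2 CPM against 111 and 148 CPM. HMGN3 entered the test through the HEK lines alone. In NEBNext libraries HMGN5 averaged 31.4 CPM in K562 and 37.4 CPM in HEK293T and was not called (edgeR adjusted p = 0.947). Among 12 other oncofetal genes, 3 passed the filter. PRAME, a tumour antigen, averaged 2198 ± 116 against 93.3 ± 21.3 CPM (SD, n = 4 and 2; edgeR adjusted p = 3.51e-60). DLK1 had 441 ± 70 CPM (SD, n = 4) in K562 and no count in the undepleted HEK libraries. GPC3, a surface proteoglycan of fetal liver, had 18 counts in undepleted HEK293T and none in undepleted K562. DLK1 entered the test through K562 alone and GPC3 through the HEK lines alone.

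The genes most like each member were ranked by Pearson correlation of log2(CPM + 1) over the 26 libraries, as a description. The libraries share lines and, within K562, shallow libraries in which several genes have no count. HMGA1 was most like STAT5A (r = 0.986), LGALS1 (0.984) and GAGE2A (0.983), the last from a family of near-identical copies. STAT5A lay at 426 to 812 CPM in K562 and at 0 to 11.9 CPM in HEK293T. HMGA2 was most like FBLN1 (r = 0.995), COL4A1 (0.992) and GOLM1 (0.991), of which FBLN1 lay at 24.9 to 104 CPM in HEK293T and at most 0.173 CPM in K562. BCL11A was most like COL4A6 (r = 0.949), COL4A1 (0.942) and HMGA2 (0.941). IGF2BP2 was most like ASH1L (r = 0.964), RIOX2 (0.952) and PRPS1 (0.951), IGF2BP3 like TBCE (0.953), TSTA3 (0.953) and MRPS28 (0.943), LIN28B like PRKRA (0.953), C1orf109 (0.952) and ATP6V1E1 (0.949), and IGF2BP1 like MVK (0.865), MTFR2 (0.848) and CHCHD1. ASH1L, RIOX2, PRPS1, TBCE, TSTA3, MRPS28, PRKRA and C1orf109 reach 0 in at least 1 K562 library, as IGF2BP2, IGF2BP3 and LIN28B do.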

How the data were processed

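Ribosome footprints were counted by the authors over coding sequences, and 4 deposited tables hold these whole-number counts, 1 transcript per row, with RPM values beside them, per the file headers. The deposited RPM values equal count over library total to within 3.6e-12, so the counts were used. The submitters' processing notes name STAR, CASAVA 1.8 and GRCh38. Read filters, duplicate handling and treatment of multi-mapping reads are not given in the sources used here. Of 19478 transcripts, 99.54% had a coding sequence in GENCODE 29, matched without version. Members were matched by gene symbol. The members and gene lists were chosen with earlier results of these data known.

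Tests used edgeR 4.0.16 under R 4.3.3 with its quasi-likelihood test, TMM scaling, filterByExpr with a minimum count of 10, Benjamini-Hochberg adjustment over all genes tested, threshold 0.05. Lines were compared over all 7 undepleted libraries and over the 4 NEBNext libraries, in fits without a term for size selection. HEK293T kits were compared in a fit of its 8 libraries and K562 kits in a fit of 8 without Ribo-Zero Plus. The size-selection experiment was fitted with size as a term, leaving 1 residual degree of freedom. Genes under the filter were read from a fit without it. A gene could pass the filter through 1 line alone, and the counts of called genes include such genes. Each standard error was derived from the fold change and its F statistic. The Ribo-Zero Plus libraries and the HEK293FT pair are given with exact counting intervals at the 95% level. DESeq2 1.42.0, other scaling, no filter, each library left out and a replicate block were alternatives. On simulated data with 4-fold changes, 89.4% of changed genes were recovered for K562 against HEK293T, undepleted, and 1.23% of calls were false (4748 genes). Only 180 of these genes were changed, whereas 44.2% of genes tested were called in the data. Such shares may therefore not carry over to comparisons of lines. Recovered and false shares were 98.2% and 4.55% for NEBNext between lines (3648 genes), 85.3% and 6.86% for NEBNext in HEK293T (4145), 95.8% and 2.42% for NEBNext in K562 (3380), and 93.4% and 5.61% for cold elution (9646).

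Named genes were the 8 members; from each list, up to 3 called genes with the highest and 3 with the lowest log2 fold change in K562 against HEK293T among those at 10 CPM or more; and the 3 genes most correlated with each member at 10 CPM or more. SYNCRIP, YTHDF2, WTAP, YBX1, STAU1, DHX9, G3BP1, HNRNPU, METTL3, HDAC1, RBBP4, GATAD2A, TAL1, HBA1, HBA2, HBZ, KRT8, KRT18, EYA1, NEFM and PAX2 fall outside that rule and were named after their values were seen.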

Additional observations from a re-analysis of the deposited data

How the results depend on the processing

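Counts of called genes moved with the tool and the libraries kept. With DESeq2, 1523 genes were called for K562 against HEK293T undepleted, 1442 against HEK293FT, 106 for HEK293FT against HEK293T and 940 for the NEBNext libraries of the lines, and 58, 1, 16, 1 and 2 for NEBNext and Ribo-Zero Gold in HEK293T and NEBNext, FastSelect and riboPools in K562. Adding libraries depleted without a nuclease gave 5518 calls for K562 against HEK293T. Keeping only the kit experiment gave 5029 against HEK293FT, and no filter gave 5746 there and 1 for Ribo-Zero Gold. Total-count scaling gave 60 for NEBNext in K562. It moved the median log2 difference of all genes to -0.16 for K562 against HEK293T, and the 1213 higher and 1240 lower genes to 992 and 1503. It also moved 932 higher and 916 lower to 777 and 1226 in NEBNext libraries, and 239 and 133 to 168 and 238 for HEK293FT against HEK293T. No result reversed its direction past the threshold. With Ribo-Zero Plus libraries in the fit, FastSelect, riboPools and cold elution gave 0 calls each.

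With 1 library left out, calls were 1951 to 3377 for K562 against HEK293T undepleted, 2723 to 4843 against HEK293FT, 144 to 175 for HEK293FT against HEK293T, and 0 to 1431 for NEBNext libraries of the lines, 0 being without the K562 library of 20 to 34 nt. For kits they were 56 to 150 for NEBNext, 1 for Ribo-Zero Gold and 0 to 1 for RiboCop in HEK293T, and 1 to 3, 2 to 9 and 13 to 22 for FastSelect, riboPools and cold elution.

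Replicate numbers showed little pairing of the libraries: correlations of same-numbered deviations were 0.0644 to 0.137 in HEK293T and -0.037 to 0.034 in the K562 kit experiment. Counting noise lowers such correlations in shallow libraries, so this check cannot show that pairing is absent. With the replicate block, calls were 2818 for K562 against HEK293T, 153, 3 and 0 for NEBNext, Ribo-Zero Gold and RiboCop, and 2, 9 and 27 for FastSelect, riboPools and cold elution; among the members only the call of IGF2BP1 with cold elution changed. The K562 NEBNext comparison could not be fitted without a library, as 3 libraries leave no residual degrees of freedom. Depth limits HMGA2, BCL11A and LIN28B in HEK293T, at most 15 counts a library.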
